A study of Rattus norvegicus with 35 samples.

Results

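The genes described here make or remove superoxide and hydrogen peroxide in neonatal rat ventricular myocytes (NRVMs). They are 10 genes given by name, namely Sod1, Sod2, Sod3, Cat, Gpx1, Gpx3, Gpx4, Nox4, Cybb and Xdh, out of 14217 genes that have a probe set of their own on the array. All 10 were found, by 12 of the 31042 probe sets tested, and where a gene had several probe sets the brightest over all arrays stands for it. NRVMs of Sprague-Dawley rats 2 to 4 days old were stretched on flexible plates by cyclic vacuum suction for 1, 4, 12, 24 or 48 h or were left unstretched, and their total RNA was hybridized to Affymetrix rat expression arrays, 5 per group and 35 in all. The arrays fall into 2 sets. Set I holds the 1, 4 and 12 h groups with unstretched control cells of its own, and set II holds the 24 and 48 h groups with unstretched control cells of its own, so each stretched group was set against the control of its set. The cultures were enriched in myocytes by plating out faster-adhering cells and were not purified further.

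Superoxide is formed in the heart by NADPH oxidases, which move electrons across a membrane onto oxygen, by xanthine oxidase and by leakage from mitochondria. The superoxide dismutases turn it into hydrogen peroxide, in the cytosol (Sod1), the mitochondrial matrix (Sod2) and the space outside the cell (Sod3). Catalase (Cat) in peroxisomes and the selenium-containing glutathione peroxidases then reduce hydrogen peroxide to water, Gpx1 in the cytosol and mitochondria, Gpx3 as a secreted enzyme and Gpx4 on lipid peroxides in membranes. Of the oxidases, Cybb encodes the catalytic subunit of the phagocyte NADPH oxidase, Nox4 encodes an NADPH oxidase that releases mainly hydrogen peroxide, and Xdh encodes xanthine dehydrogenase, the molybdenum enzyme that oxidizes hypoxanthine and xanthine to uric acid and that can be converted to an oxidase.

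The median intensity of an array lay at 88.7 to 93.1 (set I) or 90.4 to 95.8 (set II), and the median residual SD of a probe set was 0.114 and 0.12 on the log2 scale. Myh6 and Tnnt2, which encode sarcomere proteins of cardiomyocytes, averaged 14.24 and 13.91 (log2) in the unstretched cells of set II. Markers of other cell types were read in the same RNA. At 48 h the summed linear intensity of 19 macrophage markers was 4980 to 6080, against 8890 to 9980 in control cells of set II. That of 11 endothelial markers was 2890 to 3090, against 4040 to 5400, and that of 12 cardiac fibroblast markers 66100 to 74500, against 77500 to 80600. For 10 smooth muscle and pericyte markers it was 6840 to 7600, against 5040 to 6490. For 19 cardiomyocyte markers it was 174000 to 182000, against 169000 to 187000. At 12 h the cardiomyocyte sum was 185000 to 188000, against 192000 to 200000 in control cells of set I. In bulk RNA, fewer cells of a type and less RNA per cell cannot be told apart, and the levels of the 2 sets were not compared because the sets appear to have been normalized apart.

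The promoter windows of 5 genes are shown, 3 of which were lower after 48 h of stretch (Xdh, Cybb and Nox4) and the others higher after 12 h (Cat and Sod1). Each window is the 250 bases before a transcript start in RefSeq's rat assembly GRCr8. The starts used for Nox4 and Sod1 lie inside the annotated gene, so that 153 and 81 bases of their windows do as well, and only the 97 and 169 bases before the gene are printed for them. The sequences are written 5′ to 3′ along the gene, with capitals marking matches on either strand to the antioxidant response element core TGACNNNGC, the AP-1 site TGANTCA or the GC box GGGCGG. The first and second motif can share bases. The printed bases lie at chr6:27282069-27282318, plus strand (Xdh), chrX:16065066-16065315, minus strand (Cybb), chr1:150313639-150313735, plus strand (Nox4), chr3:110329527-110329776, minus strand (Cat) and chr11:42942573-42942741, plus strand (Sod1).
Xdh: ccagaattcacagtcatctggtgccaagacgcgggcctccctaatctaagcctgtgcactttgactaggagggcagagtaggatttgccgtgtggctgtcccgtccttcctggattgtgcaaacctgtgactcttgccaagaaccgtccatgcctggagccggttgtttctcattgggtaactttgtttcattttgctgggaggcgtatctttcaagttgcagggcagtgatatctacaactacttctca
Cybb: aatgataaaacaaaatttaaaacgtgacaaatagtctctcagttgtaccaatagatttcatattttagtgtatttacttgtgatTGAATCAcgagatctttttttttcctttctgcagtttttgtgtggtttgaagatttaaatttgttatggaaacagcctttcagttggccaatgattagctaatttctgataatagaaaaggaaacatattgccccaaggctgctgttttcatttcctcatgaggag
Nox4: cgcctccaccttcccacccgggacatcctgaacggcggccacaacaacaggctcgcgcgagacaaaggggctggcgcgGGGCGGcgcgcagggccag
Cat: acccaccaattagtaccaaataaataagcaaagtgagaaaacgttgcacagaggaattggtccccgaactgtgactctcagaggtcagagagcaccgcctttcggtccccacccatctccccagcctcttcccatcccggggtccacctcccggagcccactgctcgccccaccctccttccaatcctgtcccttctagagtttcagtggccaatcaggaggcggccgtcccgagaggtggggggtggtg
Sod1: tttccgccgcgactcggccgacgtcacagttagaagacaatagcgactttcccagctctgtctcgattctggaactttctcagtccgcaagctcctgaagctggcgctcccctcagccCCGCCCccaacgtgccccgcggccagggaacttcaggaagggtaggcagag
The Xdh and Cat windows held none of the 3 motifs. The Cybb window held 1 AP-1 match, which began 166 bases before the start, the Nox4 window held 2 GC boxes, 1 of them in the bases inside the gene, and the Sod1 window held 1, before the gene. The whole windows differed in base composition, with 32.0% G and C for Cybb, 50.8% for Xdh, 58.8% for Cat, 63.2% for Sod1 and 72.8% for Nox4. Of 33469 windows of this length in the table, 10.1% held the antioxidant response element core, 6.34% the AP-1 site and 30.5% the GC box. Among the other members with a window, which do not include Sod3, the Sod2 window held the only match to the antioxidant response element core, 35 bases before its start, and none held the AP-1 site.

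Among these genes the oxidases had the largest changes, and all of their changes that passed the test were falls. In limma with Benjamini-Hochberg adjustment over all probe sets, 1 of the 10 genes had an adjusted p under 0.05 at 1 h (0 higher, 1 lower), where 16.5% of all genes did. At 4 h it was 3 genes (1 higher, 2 lower), against 36.3% of all genes, and at 12 h 5 genes (3 higher, 2 lower), against 39.1%. At 24 h it was 4 genes (2 higher, 2 lower), against 23.6% of all genes, and at 48 h 6 genes (2 higher, 4 lower), against 40.9%. With only 10 genes, none of these shares was read as set apart from that of all genes. With a change of at least 1.5-fold as a further limit, Xdh passed at 4, 12, 24 and 48 h and Cybb and Nox4 at 48 h, all lower. The shares of all genes past that limit as lower were 0.324%, 1.81%, 2.4%, 1.61% and 5.26% in order of time. No dismutase, catalase or peroxidase gene reached 1.5-fold at any time.

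**Figure D1:**
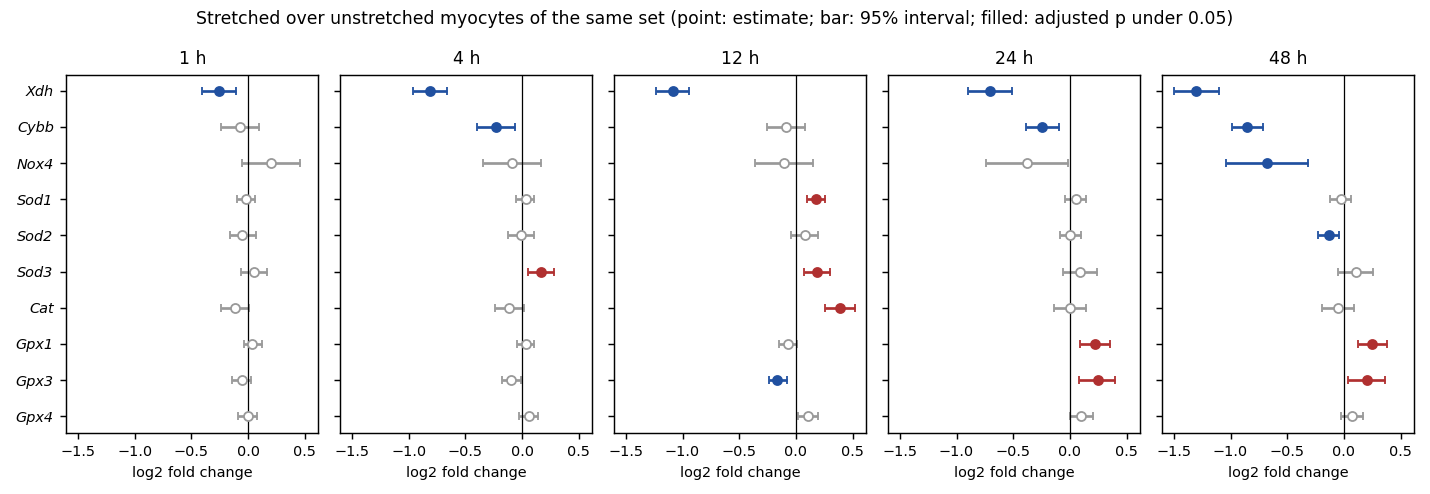
Log2 fold change of each gene in stretched over unstretched NRVMs of the same set, 1 panel per stretch time, with 95% intervals as bars and filled points for an adjusted p under 0.05 (red higher, blue lower, n = 5 arrays per group). Xdh lies left of 0 in all 5 panels and reaches -1.30 at 48 h, while the dismutases, catalase and peroxidases stay between -0.16 and 0.39.

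Xdh was lower in stretched NRVMs at every time. The arrays of the 1 h group read 8.13, 8.23, 8.33, 8.33 and 8.31 (log2 intensity), those of the 4 h group 7.78, 7.78, 7.52, 7.88 and 7.62, and those of the 12 h group 7.62, 7.24, 7.51, 7.48 and 7.35, against 8.50, 8.50, 8.48, 8.64 and 8.52 in the unstretched cells of set I. No stretched array of set I reached the lowest control array, and the 4 h and 1 h arrays did not overlap each other either. The log2 fold change was -0.26 at 1 h (SE 0.071, limma adjusted p = 0.0168), -0.81 at 4 h (SE 0.071, limma adjusted p = 2.89e-08) and -1.09 at 12 h (SE 0.071, limma adjusted p = 3.8e-10). The fall at 1 h depended on single arrays, since its adjusted p was 0.0508 without replicate 4 of the control and 0.0546 without replicate 1 of the 1 h group.

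Within set I the fall deepened with time. Of the 10 genes, 1 changed between 1 and 4 h (17.5% of all genes did), 3 changed from 4 to 12 h (12.1%), 4 over the whole span of set I (26.3%) and 2 in set II (8.69%), and Xdh was among them each time. Its log2 difference was -0.55 between 4 and 1 h (limma adjusted p = 2.05e-05) and -0.28 between 12 and 4 h (limma adjusted p = 0.0154), where the adjusted p was 0.0513 without replicate 4 of the 4 h group and 0.0549 without replicate 2 of the 12 h group. In set II the arrays read 9.08, 8.61, 8.94, 8.54 and 8.75 at 24 h and 8.16, 7.96, 8.28, 8.23 and 8.29 at 48 h, against 9.50, 9.48, 9.48, 9.59 and 9.38 in control cells. The 3 groups did not overlap. At 24 h Xdh was at 0.615 of its control level (log2 fold change -0.70, SE 0.093, limma adjusted p = 9.26e-05) and at 48 h it was at 0.406 (log2 fold change -1.30, SE 0.093, limma adjusted p = 4.06e-08), and the log2 difference between 48 and 24 h was -0.60 (limma adjusted p = 0.00105).

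Endothelial markers fell in the same arrays from 4 h on. Of 11 measured, 1 was higher and 0 lower at 1 h, and 6, 7, 5 and 9 were lower and 0 higher at 4, 12, 24 and 48 h. The shares of all genes called in either direction were 16.5%, 36.3%, 39.1%, 23.6% and 40.9% in order of time. The median log2 fold changes of the endothelial markers were -0.11, -0.222, -0.462, -0.325 and -0.721 in order of time. Over all genes the medians were 0.002, -0.004, 0, 0.03 and 0.044. The summed linear intensity of these markers in the arrays of set I spanned 2660 to 3140 (1 h), 2150 to 2700 (4 h) and 2160 to 2520 (12 h), against 2750 to 3340 in control cells. In set II it spanned 3650 to 4160 (24 h) and 2890 to 3090 (48 h), against 4040 to 5400. Cardiac fibroblast markers also had lower sums, 69300 to 73100 at 12 h, against 73700 to 79200 in control cells of set I. The part of endothelial or other cells in the fall of Xdh was not tested.

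Other genes of purine breakdown and salvage around Xdh moved in both directions, mostly by less than 1.5-fold. Of 21 measured genes, which include the purine nucleoside phosphorylase gene Pnp, the guanine deaminase gene Gda and the molybdenum cofactor genes that Xdh needs for activity, 3, 5, 6, 3 and 2 were higher in order of time, while 1, 4, 2, 2 and 4 were lower. The shares of all genes called in either direction at these times were 16.5%, 36.3%, 39.1%, 23.6% and 40.9%. The list's median log2 fold change at 48 h was 0.025, against 0.044 over all genes. The 1 gene of this list past 1.5-fold at any time was Nt5c2, a nucleotidase of purine monophosphates, which was higher at 48 h (log2 fold change 0.67, SE 0.18, limma adjusted p = 0.00774). Aox1, which encodes aldehyde oxidase, a relative of Xdh that is also a molybdenum enzyme, was lower at all 5 times, by log2 fold changes of -0.34, -0.80, -0.41, -0.69 and -1.07 in order of time (limma adjusted p = 2.81e-06 at 48 h).

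The genes whose pattern over the arrays was most like that of Xdh were Selenop, Kctd12 and Septin4. Pearson's r with Xdh over the 20 arrays of set I was 0.966, 0.97 and 0.96, and over the 15 arrays of set II it was 0.972, 0.96 and 0.971. These arrays share the stretch groups, and after the group means were removed the r with these 3 genes was 0.617, 0.368 and 0.521 in set I and 0.528, 0.317 and 0.519 in set II. Selenop encodes the secreted selenoprotein that carries selenium between tissues, on which the glutathione peroxidases depend. It was lower at all 5 times, by log2 fold changes of -0.35, -0.65, -0.96, -0.59 and -1.03 in order of time (limma adjusted p = 2.77e-08 at 48 h).

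**Figure D2:**
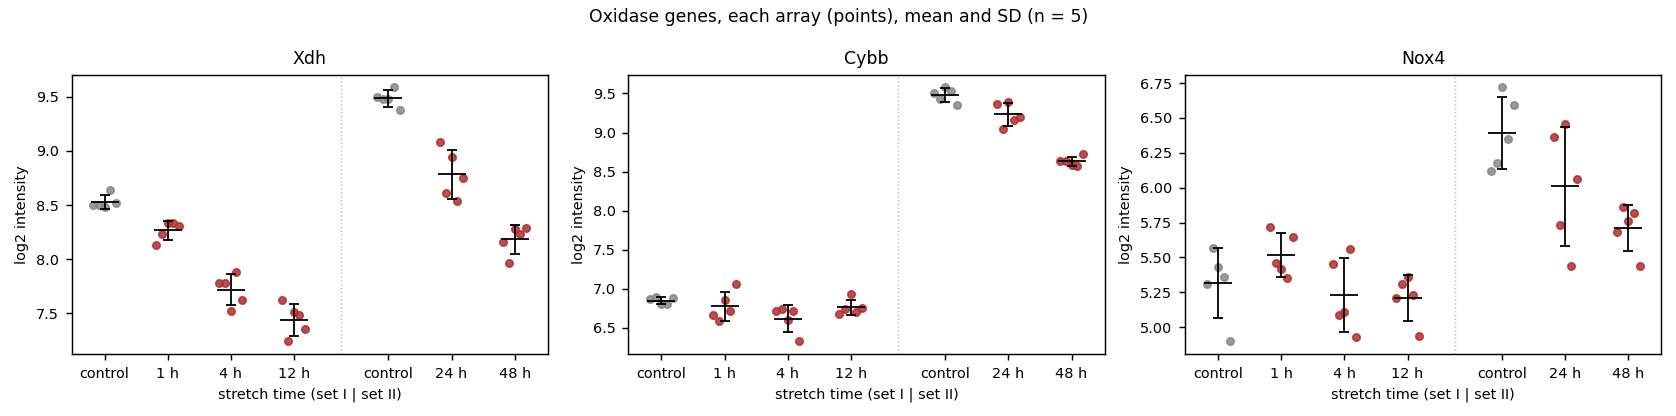
Log2 intensity of Xdh, Cybb and Nox4 in each array (points), with the group mean and SD as bars, for set I (left of the dotted line) and set II (right), unstretched cells in grey and stretched cells in red. The Xdh arrays of the stretched groups lie below all control arrays of their set, and Cybb lies between 8.57 and 8.72 at 48 h, against 9.35 to 9.58 in control cells.

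Cybb fell late. The arrays read 9.37, 9.05, 9.39, 9.16 and 9.20 (log2 intensity) at 24 h and 8.63, 8.64, 8.59, 8.57 and 8.72 at 48 h, against 9.51, 9.43, 9.58, 9.53 and 9.35 in control cells of set II. The 48 h arrays lay apart from both other groups, while the 24 h arrays overlapped the control. The level at 48 h was 0.555 of control (log2 fold change -0.85, SE 0.067, limma adjusted p = 9.8e-08), and its log2 difference from the 24 h level was -0.60 (limma adjusted p = 8.06e-05). At 24 h the log2 fold change was -0.25 (SE 0.067, limma adjusted p = 0.0166), and without replicate 2 of the 24 h group its adjusted p was 0.0504.

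A dimmer probe set of Cybb gave the same direction at both late times. It read 5.84, 6.25, 5.56, 6.04 and 5.86 at 48 h, against 7.09, 6.88, 7.42, 6.36 and 6.90 in control cells of set II, with no overlap and a log2 fold change of -1.02 (SE 0.24, limma adjusted p = 0.00328). At 24 h its value was -0.40 (limma adjusted p = 0.291). In set I the brighter probe set was lower at 4 h (log2 fold change -0.23, SE 0.082, limma adjusted p = 0.0409), but the dimmer one read 0.05 there, and the adjusted p of the brighter one was 0.0511 to 0.125 without any of the control arrays or replicate 3 or 5 of the 4 h group. At 1 and 12 h the log2 fold changes of Cybb were -0.07 and -0.09 and did not pass the test. The brighter probe set was itself dim in set I, with group mean intensities of 98.4 to 115, where array medians were 88.7 to 93.1. A fall may be harder to see at such a level, and time and set cannot be told apart. Whether Cybb changed early was therefore not settled.

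In set II macrophage markers fell in the same arrays as Cybb. Of 19 measured macrophage markers, 14 were lower and 0 higher at 48 h, where 40.9% of all genes were called in either direction. The median log2 fold change of the markers was -0.396, against 0.044 over all genes. At 24 h 7 were lower and 0 higher, where 23.6% of all genes were called. The median there was -0.213, against 0.03 over all genes. At 12 h 8 of the 19 were lower and 0 higher, not far from the 39.1% of all genes called. Cybb itself did not pass the test at 12 h. The largest falls at 48 h were those of Cd74, the invariant chain of class II molecules (log2 fold change -2.10), Mrc1, the macrophage mannose receptor (-1.13), and Adgre1, the F4/80 antigen (-0.97). C1qb (0.08), C1qc (-0.07), Aif1 (0.02), Cd163 (0.03) and Laptm5 (-0.16) did not pass the test at 48 h. The summed level of the 19 markers was 7360 to 8070 at 24 h, against 8890 to 9980 in control cells. Endothelial markers fell as well, 9 of 11 being lower at 48 h with a median of -0.721. Of 19 cardiomyocyte markers, 2 were higher and 10 lower at 12 h, with a median of -0.217. At 48 h 5 of them were higher and 9 lower, with a median of -0.066. The part of any cell type in the fall of Cybb was not tested.

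**Figure D3:**
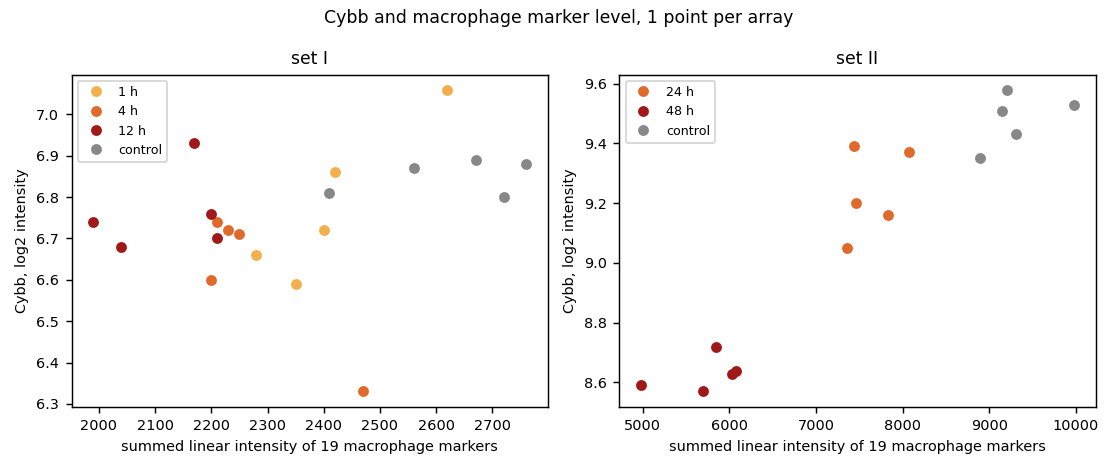
Log2 intensity of Cybb against the summed linear intensity of 19 macrophage markers, 1 point per array, for set I (left) and set II (right), coloured by group. In set II the 48 h arrays lie at 4980 to 6080 on the marker axis and 8.57 to 8.72 on the Cybb axis, and the control arrays at 8890 to 9980 and 9.35 to 9.58.

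Among the partners of the NADPH oxidases, 13 of 18 listed genes were measured. Of these, 4 were higher and 1 lower at 12 h, where 39.1% of all genes were called in either direction. At 48 h 3 were higher and 2 lower, where 40.9% of all genes were called. Rac2, the GTPase that activates the phagocyte oxidase in blood cells, was lower at 24 h (log2 fold change -0.34, SE 0.05, limma adjusted p = 0.000205) and at 48 h (-0.76, SE 0.05, limma adjusted p = 2.21e-08). Its falls at 4 and 12 h were small, -0.12 and -0.15. Chosen after their values were seen, Ncf4, a cytosolic subunit of the phagocyte oxidase, had a log2 fold change of -0.53 at 48 h (limma adjusted p = 5.51e-05), and Cyba, the membrane subunit shared by Cybb and Nox4, was higher at 4 h (0.28, limma adjusted p = 0.00108) and 12 h (0.34, limma adjusted p = 0.000128) and gave 0.16 at 48 h (limma adjusted p = 0.165).

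Nox4 was lower at 48 h. Its probe set is dim, and the arrays read 5.68, 5.86, 5.76, 5.82 and 5.44 (log2 intensity) at 48 h, against 6.12, 6.18, 6.72, 6.35 and 6.59 in control cells of set II. The groups did not overlap, and the level was 0.625 of control (log2 fold change -0.68, SE 0.17, limma adjusted p = 0.00548). At 24 h the arrays ranged from 5.44 to 6.46 with a log2 fold change of -0.38 (limma adjusted p = 0.144), and in set I the values were 0.20, -0.09 and -0.10 at 1, 4 and 12 h, none past the test.

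A second probe set is listed by the study as NADPH oxidase 4 but has no gene in the array annotation used here, and it was read after the other values had been seen. It was brighter and fell earlier. At 4 h it read 6.80, 6.77, 6.70, 6.75 and 6.07, against 7.23, 7.32, 7.18, 7.41 and 6.89 in control cells of set I, a log2 fold change of -0.58 (SE 0.12, limma adjusted p = 0.000531). It was also lower at 12 h (-0.59, limma adjusted p = 0.000382), 24 h (-0.35, limma adjusted p = 0.0247) and 48 h (-0.80, limma adjusted p = 1.25e-05), so the probe sets shared the direction at 48 h and differed in their calls at 4, 12 and 24 h.

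Tspan3, Bcap29 and Ppp1r3a were the genes most like Cybb over the arrays, with r of 0.816, 0.826 and 0.86 in set I and 0.828, 0.806 and 0.803 in set II. After removal of the group means the r was 0.751, 0.8 and 0.81 in set I and 0.009, 0.469 and 0.028 in set II. Those most like Nox4 were Maea, Slc4a4 and Pde4b, with r of 0.681, 0.649 and 0.642 in set I and 0.687, 0.789 and 0.87 in set II, and after removal of the group means 0.658, 0.57 and 0.472 in set I and 0.493, 0.564 and 0.74 in set II. Before that removal the r with Nox4 was lower than those found for Xdh, and for Maea itself the values at 24 and 48 h, -0.07 and -0.10, did not pass the test.

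Other oxidases moved in both directions. Of 21 measured genes of oxidases that form hydrogen peroxide or superoxide, 6 were higher and 4 lower at 12 h, and 7 were higher and 3 lower at 48 h. The shares of all genes called in either direction at these times were 39.1% and 40.9%. Maoa, the mitochondrial monoamine oxidase that forms peroxide from amines, was 1.54-fold higher after 12 h of stretch (limma adjusted p = 1.83e-05), 2.14-fold after 24 h (limma adjusted p = 0.000107) and 2.42-fold after 48 h (log2 fold change 1.27, SE 0.15, limma adjusted p = 5.18e-06). Loxl1, a lysyl oxidase-like enzyme that cross-links elastin, was 1.74-fold higher at 24 h (limma adjusted p = 4.2e-06) and 1.88-fold at 48 h (limma adjusted p = 8.75e-08). Aoc3, a membrane amine oxidase of vessels and fat, was lower, at 0.512 of control after 12 h (limma adjusted p = 5.01e-08) and 0.39 after 48 h (limma adjusted p = 1.16e-05).

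Catalase passed the test at 12 h only, when it was higher. The arrays read 11.92, 12.23, 12.18, 12.05 and 12.21 (log2 intensity) at 12 h, against 11.69, 11.74, 11.75, 11.75 and 11.71 in control cells of set I. All 12 h arrays were above all control arrays, and Cat was 1.31-fold higher (log2 fold change 0.39, SE 0.061, limma adjusted p = 3.72e-05). Its level after 12 h exceeded those of the 1 and 4 h groups by 0.50 each (limma adjusted p = 4.2e-06 and 1.23e-05). At 1 and 4 h its values were -0.11 and -0.11 (limma adjusted p = 0.272 and 0.194), and in set II they were 0.00 at 24 h (95% interval -0.14 to 0.14) and -0.05 at 48 h (-0.19 to 0.09).

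Sod1 was higher at 12 h as well. The arrays read 13.09, 13.01, 13.05, 13.07 and 13.02 at 12 h, against 12.91, 12.89, 12.88, 12.78 and 12.89 in control cells of set I. The groups did not overlap, and Sod1 was 1.13-fold higher (log2 fold change 0.18, SE 0.037, limma adjusted p = 0.000759), also above the 1 h level by 0.20 (limma adjusted p = 0.000568) and the 4 h level by 0.15 (limma adjusted p = 0.0149). Its 4 other values lay between -0.03 and 0.05. Ccs, the chaperone that delivers copper to Sod1, was chosen after its values were seen and was lower at 12 h (log2 fold change -0.19, limma adjusted p = 0.00112).

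**Figure D4:**
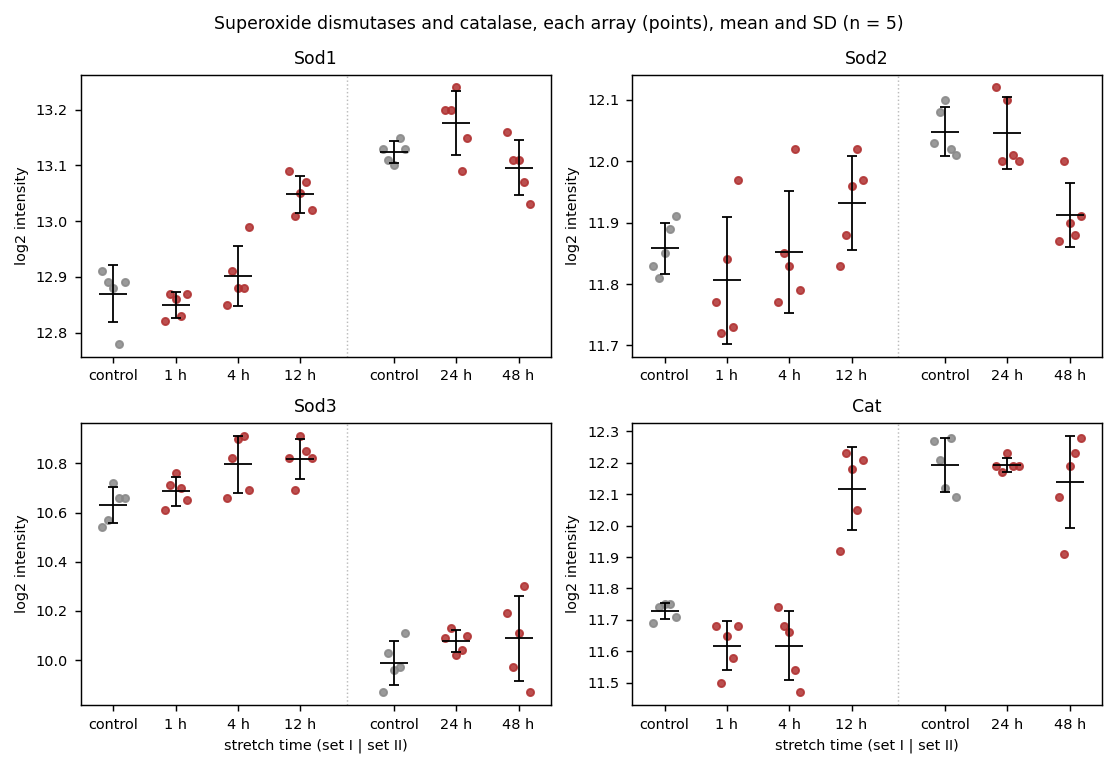
Log2 intensity of Sod1, Sod2, Sod3 and Cat in each array (points), with the group mean and SD as bars, for set I (left of the dotted line) and set II (right), unstretched cells in grey and stretched cells in red. Cat at 12 h lies between 11.92 and 12.23, above all control arrays of set I (11.69 to 11.75). Sod3 runs from 9.87 in set II to 10.91 in set I.

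Sod3 was slightly higher in set I. The arrays read 10.82, 10.69, 10.91, 10.85 and 10.82 at 12 h, against 10.54, 10.57, 10.72, 10.66 and 10.66 in control cells, which overlap by 1 stretched array. The log2 fold change was 0.19 at 12 h (SE 0.056, limma adjusted p = 0.0133) and 0.17 at 4 h (SE 0.056, limma adjusted p = 0.0283). The call at 4 h was lost without replicate 1 or 2 of the control or replicate 2, 3 or 4 of the 4 h group, with adjusted p of 0.0529 to 0.0867. At 24 and 48 h the values were 0.09 and 0.10 (limma adjusted p = 0.445 and 0.3).

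Sod2, the mitochondrial dismutase, had log2 fold changes between -0.05 and 0.08 in set I, none past the test. At 48 h the arrays read 11.87, 12.00, 11.90, 11.88 and 11.91, against 12.03, 12.08, 12.10, 12.02 and 12.01 in control cells of set II, a narrow gap between the groups and a log2 fold change of -0.13 (SE 0.045, limma adjusted p = 0.033). The call was lost without replicate 1, 2 or 3 of the control or replicate 1, 3, 4 or 5 of the 48 h group, with adjusted p of 0.0528 to 0.077. With each array centred on its median the value was -0.08 (adjusted p = 0.18).

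Gpx1 was higher in set II. The arrays read 13.02, 13.08, 13.17, 13.14 and 13.18 at 24 h and 13.16, 13.16, 13.10, 13.17 and 13.13 at 48 h, against 12.84, 12.88, 13.01, 12.70 and 13.05 in control cells. The control arrays varied more than the stretched ones, and the 48 h group alone was clear of them. Gpx1 was 1.17-fold higher after 24 h (0.22 on the log2 scale, SE 0.061, limma adjusted p = 0.0185) and 1.19-fold after 48 h (0.25, SE 0.061, limma adjusted p = 0.00488). In set I its values were 0.04, 0.03 and -0.07 at 1, 4 and 12 h and did not pass the test.

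Gpx3 was lower at 12 h and higher at the late times. At 12 h the arrays read 12.29, 12.23, 12.26, 12.29 and 12.31, against 12.44, 12.44, 12.43, 12.51 and 12.38 in control cells of set I, with no overlap and a log2 fold change of -0.16 (SE 0.039, limma adjusted p = 0.00226). At 24 h they read 11.40, 11.66, 11.52, 11.65 and 11.62 and at 48 h 11.57, 11.38, 11.55, 11.70 and 11.45, against 11.28, 11.42, 11.22, 11.20 and 11.50 in control cells of set II. The late groups overlapped the control. Their log2 fold changes were 0.24 at 24 h (SE 0.076, limma adjusted p = 0.0342) and 0.20 at 48 h (SE 0.076, limma adjusted p = 0.0493). The call at 24 h was lost without replicate 1, 3 or 4 of the control or 2, 4 or 5 of the 24 h group, with adjusted p of 0.0737 to 0.0872. That at 48 h was lost without 11 of the 15 arrays of set II, and held only without control replicate 2 or 5, 24 h replicate 1 or 48 h replicate 2, with adjusted p otherwise of 0.0508 to 0.126.

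Gpx4 passed the test at no time. Its log2 fold changes were 0.00, 0.06, 0.10, 0.10 and 0.07 at 1, 4, 12, 24 and 48 h. At 12 h the arrays read 12.35, 12.25, 12.25, 12.39 and 12.31, against 12.22, 12.23, 12.16, 12.20 and 12.23 in control cells of set I, so the groups did not overlap, and the adjusted p was 0.0538 in limma, with a 95% interval of 0.02 to 0.19. A dim second probe set of Gpx4 gave -0.01 at 12 h (95% interval -0.17 to 0.16).

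**Figure D5:**
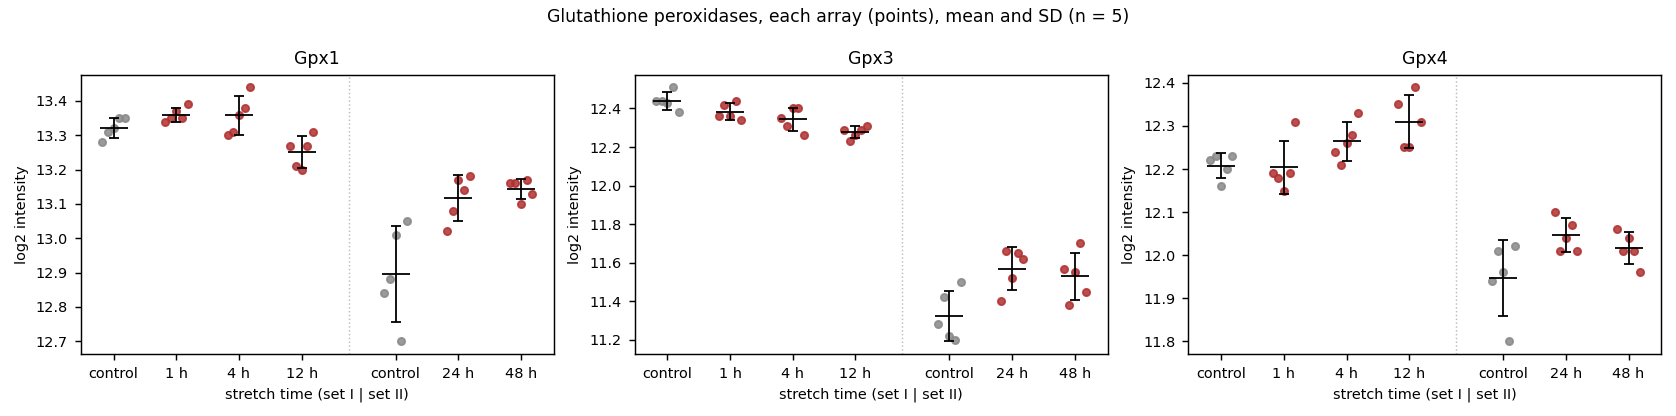
Log2 intensity of Gpx1, Gpx3 and Gpx4 in each array (points), with the group mean and SD as bars, for set I (left of the dotted line) and set II (right), unstretched cells in grey and stretched cells in red. Gpx3 at 12 h lies at 12.23 to 12.31, below all control arrays of set I (12.38 to 12.51), while at 48 h it lies at 11.38 to 11.70, against 11.20 to 11.50 in control cells of set II.

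Genes of other peroxidases and of the metal and selenium supply of these enzymes gave 23 measured of 26 listed, of which 2 were higher and 5 lower at both 12 and 48 h, with a median log2 fold change of -0.022 at 48 h, against 0.044 over all genes. Selenop and Pstk were past 1.5-fold at 48 h. Pstk, the kinase that prepares the transfer RNA for selenocysteine, was lower at 4 h (log2 fold change -0.41, limma adjusted p = 3.27e-06), 12 h (-0.46, limma adjusted p = 5.26e-07), 24 h (-0.47, limma adjusted p = 1.44e-05) and 48 h (-0.62, limma adjusted p = 8.93e-08). Of 13 genes of extracellular antioxidant handling, 2 were higher and 5 lower at 48 h. Among all genes, 39.1% were called in either direction at 12 h and 40.9% at 48 h. Ceruloplasmin (Cp), a copper ferroxidase, fell to 0.607 of control at 12 h (limma adjusted p = 2.97e-08) and to 0.516 of control at 48 h (limma adjusted p = 2.21e-08), and Heph, a membrane ferroxidase related to it, had a log2 fold change of -0.69 at 48 h (limma adjusted p = 6.51e-06). Apoe, the apolipoprotein, had -1.03 at 48 h (limma adjusted p = 1.06e-06). Ltbp1, a matrix protein that holds latent TGF-beta, rose 2.88-fold at 48 h (limma adjusted p = 4.84e-07), and Hpx, the heme carrier hemopexin, had a log2 fold change of 0.63 (limma adjusted p = 7.01e-05).

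The effects in the 2 sets were compared in a single limma fit of all 35 arrays, a comparison chosen after the values were seen, in which the effect at 24 or 48 h was set against the effect at 12 h, each over its own control. For 24 h against 12 h, 4 of the 10 genes differed from their 12 h effect, where 10.1% of all genes did, and for 48 h against 12 h 6 of the 10, where 20% did. Cat differed by -0.44 at 48 h (SE 0.088, adjusted p = 0.000519) and Sod1 by -0.21 (SE 0.051, adjusted p = 0.00429), both having risen at 12 h. Gpx3 differed by 0.41 at 24 h (SE 0.081, adjusted p = 0.00137) and by 0.37 at 48 h (SE 0.081, adjusted p = 0.00143), and Gpx1 by 0.29 and 0.32 (adjusted p = 0.00491 and 0.000841). The Cybb effect differed by -0.76 at 48 h (SE 0.11, adjusted p = 5.7e-06), while for Xdh the difference at 48 h was -0.21 (SE 0.12, adjusted p = 0.235). Time and set cannot be told apart in this comparison, since no time was measured in both sets.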

How the data were processed

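The 10 genes and the gene lists were chosen with earlier results of these data known. The authors made the intensity values from scanned arrays by Robust Multichip Average (RMA) and deposited them on a linear scale. Every value was converted to log2 here. A spreadsheet had turned 471 values in 427 probe sets into dates, which were read back as intensities; none belonged to the genes described. The 57 array controls among 31099 probe sets were dropped. The array annotation gave 1 gene for 20826 probe sets, several for 436 and none for 9780, and a gene was named only from a probe set with 1 symbol.

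In limma 3.58.1 (R 4.3.3), 1 mean per group was fitted within each set, with moderated variances and Benjamini-Hochberg adjustment over 31042 probe sets per comparison, and a call was an adjusted p under 0.05. An alternative was the one-way analysis of variance of the methods. The replicates are called biological and the methods speak of stretch groups within each culture, but the sources do not say which arrays shared a culture, so p-values measure the spread between these samples, and 5 arrays per group limit the precision. Genes named from lists were up to 4 per list with the largest called change of at least 1.5-fold, and those against the rest, and for genes called with 1.5-fold the 3 genes most like each in both sets. The fit was tested on simulated data. Alternatives were another moderation, scalings, array weights, a filter at a mean log2 of 6, other probe sets, genes in place of probe sets, only the groups compared, a replicate block and each array left out. Of the 10 genes, 9 matched a promoter in the RefSeq table for GRCr8, and Sod3 did not. Tables were handled with Python 3.11.15 and pandas 2.3.3.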

Additional observations from a re-analysis of the deposited data

Results flagged for a closer look

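In 3 of the 70 groups of 5 arrays of the 10 genes, 1 array stood apart from the others by Dixon's criterion, which chance does in about 1 of 20 groups. Sod1 read 12.78 in replicate 4 of the control of set I, against 12.88 to 12.91 in the other control arrays, and Xdh read 8.64 in the same array, against 8.48 to 8.52. Cybb read 6.93 in replicate 3 of the 12 h group, against 6.68 to 6.76 in the others.

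Of 40 differences between stretch times within a set, 10 had an adjusted p under 0.05 in limma. Xdh differed by -0.55 (log2) between 4 and 1 h, by -0.28 between 12 and 4 h, by -0.83 between 12 and 1 h (adjusted p = 3.58e-08) and by -0.60 between 48 and 24 h. Cat differed by 0.50 between 12 and 4 h and by 0.50 between 12 and 1 h. Sod1 differed by 0.15 between 12 and 4 h and by 0.20 between 12 and 1 h. Gpx1 differed by -0.11 between 12 and 1 h (adjusted p = 0.0409), a call lost without 11 of 20 arrays (control replicates 2 and 3, all of the 1 h group and replicates 1, 2, 3 and 4 of the 12 h group, with adjusted p of 0.0502 to 0.102), and Cybb by -0.60 between 48 and 24 h.

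Of 20 differences between a late effect and the 12 h effect, 10 had an adjusted p under 0.05 in limma. At 24 h they were -0.39 for Cat (adjusted p = 0.00486), 0.29 for Gpx1, 0.41 for Gpx3 and 0.38 for Xdh (adjusted p = 0.0382). At 48 h they were -0.21 for Sod1, -0.21 for Sod2 (adjusted p = 0.0371), -0.44 for Cat, 0.32 for Gpx1, 0.37 for Gpx3 and -0.76 for Cybb.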

How the results depend on the processing

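Of the 19 calls over the 5 times, 11 held in every alternative and with each array left out: Xdh at 4, 12, 24 and 48 h, Sod1, Sod3, Cat and Gpx3 at 12 h, and Gpx1, Nox4 and Cybb at 48 h. With single arrays left out, the number of genes called was 0 to 1 at 1 h (0 without replicate 4 of the control or replicate 1 of the 1 h group), 1 to 3 at 4 h (1 without replicate 1 or 2 of the control or replicate 3 of the 4 h group) and 2 to 4 at 24 h (2 without replicate 2 of the 24 h group). It was 5 to 6 at 12 h and 4 to 6 at 48 h. Gpx1 at 24 h had an adjusted p of 0.0506 with only the groups compared in the fit. Gpx4 at 12 h passed in 7 of 12 alternatives, with adjusted p of 0.0176 in the t test without moderated variances and 0.0114 in limma with an intensity trend.

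Genes changed between 1 and 12 h numbered 7 with array weights (4 without), those between 4 and 12 h numbered 1 with only the groups compared (3 otherwise), and those between 24 and 48 h numbered 1 with the other probe sets (2 otherwise). With the second Nox4 probe set, chosen after seeing the data, 2 genes passed 1.5-fold at 12 h (1 otherwise) and 2 changed between 1 and 4 h (1 otherwise). The causes were not tested.

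Of the values whose direction reversed, Cybb at 4 h alone had been called (-0.23, and 0.052 with its other probe set). Another probe set also turned Nox4 at 1 h (0.20, and -0.047 with the second Nox4 probe set) and Gpx4 at 12 h (0.10, and -0.0059), and the main values of the others lay between -0.05 and 0.00. Arrays centred on their median gave 0.0099 for Sod1 and 0.025 for Gpx4 at 1 h, 0.019 for Sod2 at 4 h and 0.021 for Sod1 at 48 h. Array weights gave 0.038 for Sod2 at 4 h, -0.016 for Sod2 and -0.011 for Cat at 24 h, and quantile normalization gave -0.0034 for Sod2 at 24 h. The other probe set gave 0.015 for Gpx4 at 1 h, and the median of the probe sets 0.0052. With single arrays left out, Gpx4 at 1 h was -0.03 to 0.01, Sod2 -0.047 to 0.015 at 4 h and -0.018 to 0.014 at 24 h, and Cat -0.025 to 0.024 at 24 h and -0.086 to 0.0059 at 48 h.

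Replicate numbers gave no clear pairing of the samples. The mean correlation of same-numbered deviations lay between -0.0358 and 0.0125 (set I) and between -0.0852 and 0.137 (set II), and 4 of 20 and 3 of 15 arrays were closest to their own number. In set II it was 0.106 for replicate 1 and 0.137 for replicate 4, against -0.0224 and -0.031 with other numbers. This check cannot show that no arrays shared a culture. With the replicate block, 1, 2, 6, 3 and 4 genes were called at 1, 4, 12, 24 and 48 h.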
